A study of Homo sapiens with 6 samples.

Results

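The genes described here encode the Argonaute proteins, the TNRC6 proteins and 3 proteins that make or carry microRNA precursors. They were taken by gene symbol from the count table, in its older spelling for the Argonaute genes: EIF2C1, EIF2C2, EIF2C3 and EIF2C4 (now AGO1 to AGO4), TNRC6A, TNRC6B, TNRC6C, DICER1, DGCR8 and XPO5. All 10 were found among its 23228 symbols, and all 10 were among the 14504 genes that passed the filter on low counts. The cells were U2OS, an established human osteosarcoma line. They were harvested 48 hours after lipid transfection with scrambled siRNA (3 libraries) or with siRNAs against ALKBH5 (3 libraries), and polyadenylated RNA was sequenced in single reads of 50 bases. The labels name no genetic change, no second siRNA set, no rescue and no untransfected group, so effects of losing ALKBH5 and other effects of the siRNAs cannot be told apart. ALKBH5 removes the methyl mark N6-methyladenosine from RNA, and its own message was at 138, 148 and 143 CPM with scrambled siRNA and at 19.4, 16.2 and 15.7 CPM with ALKBH5 siRNA (CPM, reads per 1000000 reads in genes of the library, with totals scaled by TMM factors). The mean fell from 143 ± 4.92 to 17.1 ± 2.06 CPM (SD, n = 3, as in all values of this form; log2 fold change −3.06, adjusted p = 1.62e-09).

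In the microRNA pathway, the Microprocessor, made of DROSHA and the RNA-binding protein DGCR8, cuts hairpins out of nuclear transcripts. Exportin 5 (XPO5) carries them to the cytoplasm, DICER1 cuts them to short duplexes, and an Argonaute protein keeps a single strand as its guide. TNRC6 proteins (also called GW182) bind Argonaute and recruit deadenylases, which silences the messages that the guide pairs with. Transfected siRNA is loaded into the same Argonaute proteins, and both groups received siRNA.

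Reads in genes numbered 18817181 to 23410007 per library, and each gene described rested on 244 to 5816 reads in every library. The share of uniquely mapped reads that fell outside genes was 15.0% to 15.5% for scrambled siRNA and 17.3% to 18.6% for ALKBH5 siRNA, and its part in the results was not tested. The 8 osteoblast markers summed to 3450 to 3680 CPM with scrambled and 3060 to 3750 CPM with ALKBH5 siRNA. Most of it came from COL1A1 and SPARC (1526 ± 38.3 and 2030 ± 78.1 CPM in the scrambled libraries). RUNX2, COL1A2 and ALPL were at 25.3 ± 4.23, 4.44 ± 4.62 and 3.97 ± 0.523 CPM there. Of the 5 tested, COL1A1 and RUNX2 were higher with ALKBH5 siRNA (log2 fold changes of 0.40 and 0.73), and SPARC and ALPL were lower (−0.51 and −0.67). The groups of RUNX2 overlapped, and COL1A2 did not pass. SP7 and BGLAP were too low to be tested, and IBSP had no read. The 5 leukocyte markers summed to 3.41 to 5.91 CPM in the scrambled and 2.76 to 5.07 CPM in the ALKBH5 siRNA libraries, with CD3E at 0. Sums were 6.22 to 8.74 and 1.37 to 2.41 CPM for the 4 endothelial markers, and 506 to 598 and 551 to 583 CPM for the 6 epithelial ones, most of it from KRT8 and KRT18. Of the 3 tested endothelial markers VWF and KDR were lower, and of the 2 tested leukocyte markers PTPRC was lower. KDR had 20 to 25 reads in the scrambled and 0 to 2 in the ALKBH5 siRNA libraries. PTPRC had 21 to 31 and 9 to 18 reads, and its groups overlapped in CPM. Of the 5 tested epithelial markers KRT18 and CDH1 were higher and KRT8 and CLDN7 lower. The part of these changes in the results was not tested. All libraries came from the U2OS line. In bulk RNA, fewer cells with a message and less of it per cell cannot be told apart.

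The Argonaute and TNRC6 genes changed in opposite directions within each family, and none of the 3 processing genes passed the test. EIF2C1, EIF2C2 and TNRC6B fell, and EIF2C3, EIF2C4, TNRC6A and TNRC6C rose. Together 7 of the 10 genes passed edgeR's quasi-likelihood test at an adjusted p under 0.05, 4 higher and 3 lower. Of all tested genes 61.6% passed, 30.8% higher and 30.8% lower, so 70.0% is near the background. With library totals in place of scaled totals, 3 were higher and 5 lower. With replicate number as a block in the fit, 4 were higher and 5 lower. The median log2 fold change (ALKBH5 siRNA over scrambled siRNA) of the 10 genes was 0.00 and their median absolute log2 fold change 0.40, against 0.01 and 0.46 over all tested genes. No gene of the 10 passed a test against a 1.5-fold change (glmTreat), which 24.8% of all tested genes did, and 3 had an unadjusted p under 0.05 in it. In 9 of the 10 genes the 2 groups were apart in CPM, with no overlap, against 67.4% of all tested genes.

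**Figure D1:**
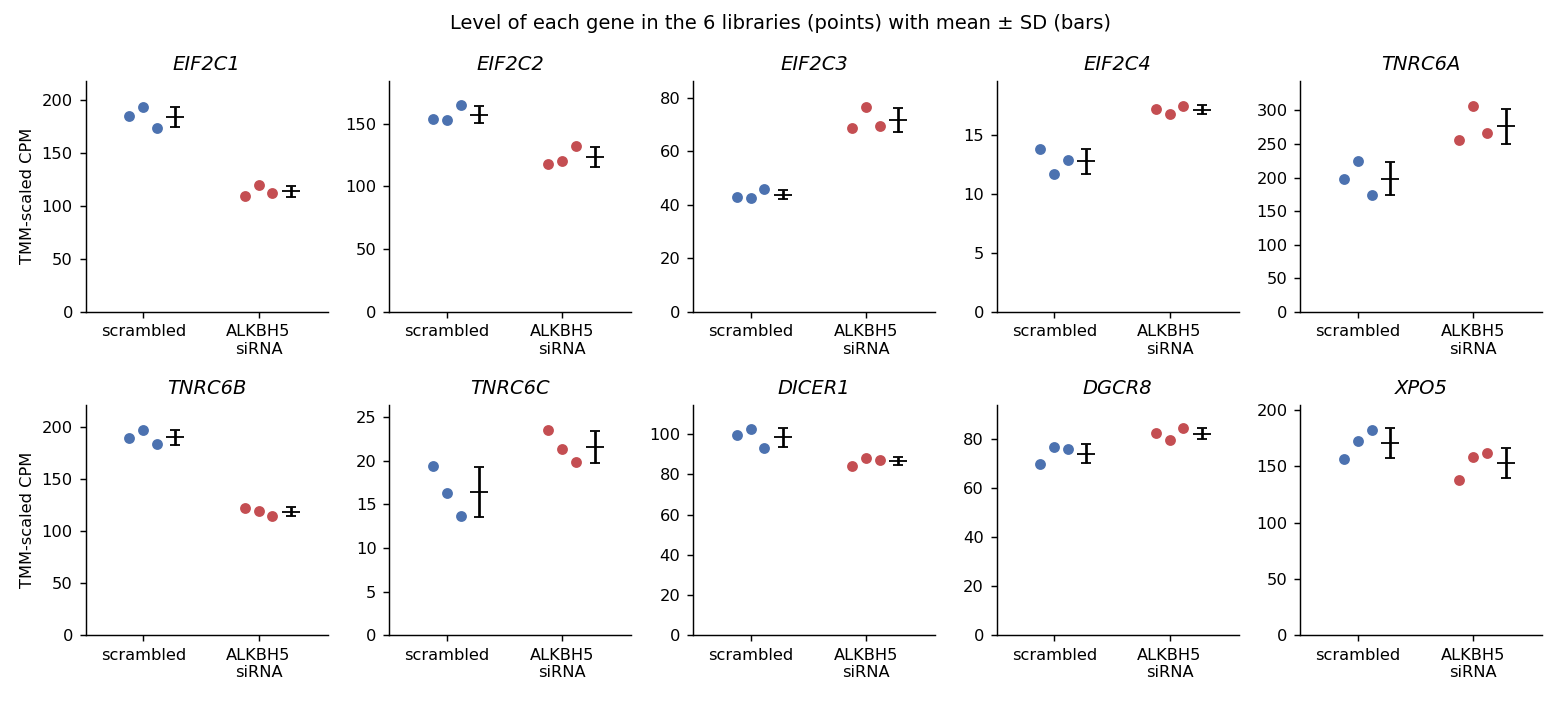
Level of each of the 10 genes in the 6 libraries, in CPM scaled with TMM factors, on axes that start at 0; each point is a library and the bars are mean ± SD of 3 libraries. The groups overlap in XPO5 and in no other of the 10.

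Argonaute proteins hold the small RNA guide. AGO2, the product of EIF2C2, cuts fully paired targets, the step on which siRNA knockdown depends. EIF2C1 stood at 185, 193 and 174 CPM in the scrambled group and at 109.5, 119.7 and 112 CPM in the ALKBH5 siRNA libraries. Every ALKBH5 siRNA library was lower than every scrambled one, and the mean went from 184 ± 9.71 to 114 ± 5.38 CPM (a log2 fold change of −0.70, SE 0.08, adjusted p = 8.47e-06). EIF2C2 stood at 153, 153 and 165 CPM against 118, 119.8 and 132 CPM. It fell less, by 0.35 on the log2 scale (95% interval −0.52 to −0.18, adjusted p = 0.00207), again with no overlap between the groups.

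The other Argonaute genes, which had fewer reads, rose. EIF2C3 was at 42.8, 42.7 and 45.8 CPM in the scrambled group and at 68.5, 76.7 and 69.5 CPM in the ALKBH5 siRNA libraries (a log2 fold change of 0.71, SE 0.09, adjusted p = 2.1e-05). Its highest scrambled library lay well under its lowest ALKBH5 siRNA library, and its mean was 1.64-fold higher. EIF2C4 was at 13.9, 11.7 and 12.9 CPM against 17.2, 16.8 and 17.5 CPM, 1.34-fold higher (95% interval of the log2 fold change 0.17 to 0.68, adjusted p = 0.00746). Of the fits with 1 library left out, the one without scrambled replicate 2 came nearest to the threshold (adjusted p = 0.0468).

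Summed over the 4 genes, Argonaute reads were 396, 400.3 and 397 CPM in the scrambled group and 313, 333 and 331 CPM in the ALKBH5 siRNA libraries. The mean fell by 18.1%, and the groups did not overlap. EIF2C1 gave 46.3% ± 2.30 of these reads in the scrambled group and 34.9% ± 1.11 in the ALKBH5 siRNA libraries, while EIF2C3 went from 11.0% ± 0.456 to 22.0% ± 1.02. EIF2C4 went from 3.22% ± 0.289 to 5.28% ± 0.233. The share of EIF2C2 was 39.5% ± 1.76 and 37.9% ± 2.01, and its groups overlapped. These shares are of reads, so longer messages weigh more.

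**Figure D2:**
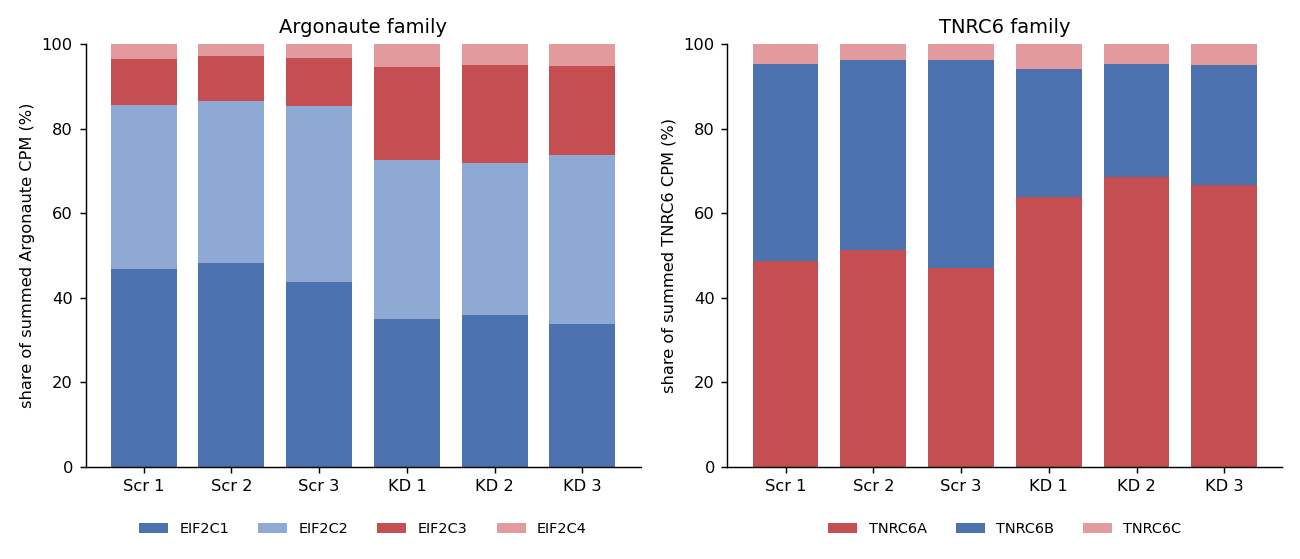
Share of each paralog in the summed CPM of its family, in percent, for every library (Scr, scrambled siRNA; KD, ALKBH5 siRNA; numbers are replicates). The EIF2C3 segment is 10.7% to 11.5% in the scrambled and 21.0% to 23.0% in the ALKBH5 siRNA libraries. TNRC6A has a larger share than TNRC6B in every ALKBH5 siRNA library and in Scr 1 and Scr 2, and a smaller share in Scr 3.

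Ratios of 2 paralogs inside a library need no scaling between libraries. EIF2C1 had 4.21 times the reads of EIF2C3 in the scrambled group and 1.59 times in the ALKBH5 siRNA libraries (geometric means of 3). The log2 ratios were 2.11, 2.18 and 1.93 against 0.68, 0.64 and 0.68. The log2 ratio of EIF2C1 to EIF2C2 went from 0.23 ± 0.14 to −0.12 ± 0.12, so EIF2C1 led in each scrambled library and EIF2C2 in each ALKBH5 siRNA library, in replicate 2 by almost nothing (log2 ratio −0.0013). The groups did not overlap in any of the 6 Argonaute pairs. These pairs share genes that were each apart in CPM, so a pair of a falling and a rising gene had to be apart. Of all tested genes 67.4% were apart in CPM, and the share over other pairs of genes was not computed. Each of the 6 pairs had p = 0.1 in an exact 2-sided permutation test, the smallest that 3 against 3 libraries can give. Adjusted over the 9 pairs of both families it was 0.113.

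Per length, the order of the Argonaute genes was the same with exon lengths and with coding lengths of GENCODE 29. In the scrambled libraries it was EIF2C1, EIF2C2, EIF2C3 and EIF2C4, with levels of 13.3, 10.8 and 2.13 CPM per kilobase of exon for the first 3. In the ALKBH5 siRNA libraries EIF2C2 came before EIF2C1 (8.47 and 8.23 CPM per kilobase of exon), and these 2 did not differ beyond the spread of their ratio above. The levels of EIF2C3 and EIF2C4 were then 3.48 and 2.41. Per kilobase of coding sequence EIF2C3 was further from EIF2C4, at 17.0 against 4.96 CPM in the scrambled libraries. The sources used here do not give the gene models behind the deposited counts, so these lengths may differ from those counted.

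EIF2C4, EIF2C1 and EIF2C3 follow each other in this order on chromosome 1 in the RefSeq gene table, with no other protein-coding gene between them. EIF2C1 thus fell while both of its neighbours rose. Of the 50-base words in the longest coding transcript of each of the 10 genes, 0 occurred in a transcript of another of the 10, so an exact read of that length inside these transcripts belonged to 1 of the paralogs. In EIF2C1 2.54% of the words also occurred in another gene's transcripts, in EIF2C3 2.02%, in EIF2C4 0.354% and in EIF2C2 none. The upstream sequences of EIF2C1 and EIF2C3 are shown because these neighbours moved in opposite directions. They are the 250 bases before the RefSeq start (GRCh38.p14), 5′ to 3′. Capitals mark matches on either strand to 3 motifs, CCAAT (the CCAAT box), GGGCGG (the GC box) and TGACG (shared by sites of the CREB and ATF family), none of which overlap here.
EIF2C1, chr1:35882959-35883208, plus strand: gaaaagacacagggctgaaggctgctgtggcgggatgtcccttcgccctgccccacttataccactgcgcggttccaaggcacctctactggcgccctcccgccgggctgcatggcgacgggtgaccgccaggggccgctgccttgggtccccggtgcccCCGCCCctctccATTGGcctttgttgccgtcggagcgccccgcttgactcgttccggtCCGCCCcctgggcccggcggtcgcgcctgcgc
EIF2C3, chr1:35930855-35931104, plus strand: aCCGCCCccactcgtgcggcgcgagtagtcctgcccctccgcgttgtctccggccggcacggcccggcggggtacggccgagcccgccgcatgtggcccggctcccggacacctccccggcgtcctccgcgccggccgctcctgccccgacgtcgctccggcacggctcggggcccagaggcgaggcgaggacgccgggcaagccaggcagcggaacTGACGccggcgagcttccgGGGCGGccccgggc

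The EIF2C1 window held 1 match to CCAAT and 2 to GGGCGG. The EIF2C3 window held 2 to GGGCGG and 1 to TGACG. Over 35116 RefSeq windows of this length, 32% held CCAAT, 42.6% GGGCGG and 21.2% TGACG. G and C made up 71.6% of the EIF2C1 window and 80% of the EIF2C3 window, against a median of 58%. These are matches of letters, and the data hold no measure of binding.

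TNRC6 proteins link Argonaute to the deadenylases. TNRC6B fell about as far as EIF2C1. It was at 189, 197 and 183 CPM in the scrambled group and at 122, 119 and 114 CPM in the ALKBH5 siRNA libraries (a log2 fold change of −0.68, SE 0.07, adjusted p = 6.9e-06). TNRC6A rose from 197, 224 and 175 CPM to 256, 306 and 266 CPM (a log2 fold change of 0.48, SE 0.10, adjusted p = 0.00146). The groups of neither gene overlapped, although TNRC6A varied more between libraries of a group, with a coefficient of variation of 12.4% in the scrambled libraries against 3.60% for TNRC6B.

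TNRC6C had the fewest reads of the family and rose by a call close to the threshold. Its levels were 19.4, 16.2 and 13.7 CPM against 23.5, 21.3 and 19.9 CPM, and the lowest ALKBH5 siRNA library was only just above the highest scrambled one. The log2 fold change was 0.39 (SE 0.14, 95% interval 0.09 to 0.68, adjusted p = 0.0265). The call did not survive leaving out scrambled replicate 2 (a log2 fold change of 0.37, adjusted p = 0.0841) or 3 (0.27, adjusted p = 0.112). Nor did it survive leaving out ALKBH5 siRNA replicate 1 (0.32, adjusted p = 0.084) or 2 (0.40, adjusted p = 0.0532), or library totals in place of scaled ones (0.32, adjusted p = 0.0661). The gene stayed higher in each of these fits. Of the 50-base words of its transcript, 14.3% were shared with TNRC6C-AS1, an antisense gene. The sources used here do not say whether the counting used strand, so reads of the pair may be mixed.

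The summed TNRC6 reads overlapped between the groups while the shares of TNRC6A and TNRC6B did not. Summed TNRC6 reads were 406, 437 and 371 CPM in the scrambled and 402, 447 and 400.1 CPM in the ALKBH5 siRNA libraries, a mean difference of 2.91%. TNRC6A gave 49.0% ± 2.14 of them in the scrambled and 66.3% ± 2.39 in the ALKBH5 siRNA libraries, and TNRC6B 47.0% ± 2.16 and 28.5% ± 1.84. TNRC6A had 1.04 times the reads of TNRC6B in the scrambled group and 2.33 times in the ALKBH5 siRNA libraries. Their log2 ratios were 0.06, 0.19 and −0.07 against 1.07, 1.36 and 1.22, with p = 0.1 in the exact permutation test. The ratio of TNRC6A to TNRC6C overlapped between the groups (log2 ratio 3.60 ± 0.23 against 3.68 ± 0.21, exact p = 0.6). TNRC6C was the lowest of the 10 genes per kilobase by either length, while the order of TNRC6A and TNRC6B in the scrambled libraries depended on it (23.5 and 10.1 CPM per kilobase of exon, 33.7 and 34.5 per kilobase of coding sequence).

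The upstream windows of TNRC6B and TNRC6A are shown in the same way, as the paralogs whose shares moved in opposite directions. TNRC6B held 5 matches to CCAAT, 2 to GGGCGG and 1 to TGACG, with 56.4% G and C. Its CCAAT matches were the most in any single window of the 9 genes with a window in the table. DICER1 and TNRC6C have more than 1 window. Over the 35116 RefSeq windows the mean was 0.458 CCAAT matches, and the share of windows with 5 or more was not counted. DGCR8, which did not pass the test, had 4.
TNRC6B, chr22:40044584-40044833, plus strand: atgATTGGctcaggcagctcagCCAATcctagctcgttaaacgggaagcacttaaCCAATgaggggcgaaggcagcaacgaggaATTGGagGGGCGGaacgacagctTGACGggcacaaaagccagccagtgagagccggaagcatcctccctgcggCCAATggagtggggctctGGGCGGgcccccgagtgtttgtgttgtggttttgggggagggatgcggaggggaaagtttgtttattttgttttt
TNRC6A, chr16:24729401-24729650, plus strand: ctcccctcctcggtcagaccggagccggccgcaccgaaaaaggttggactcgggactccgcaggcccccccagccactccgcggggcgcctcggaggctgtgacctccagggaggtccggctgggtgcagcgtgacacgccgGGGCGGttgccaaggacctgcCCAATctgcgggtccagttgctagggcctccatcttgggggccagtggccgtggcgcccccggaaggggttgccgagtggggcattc
The TNRC6A window held 1 match to CCAAT and 1 to GGGCGG, with 71.6% G and C.

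**Figure D3:**
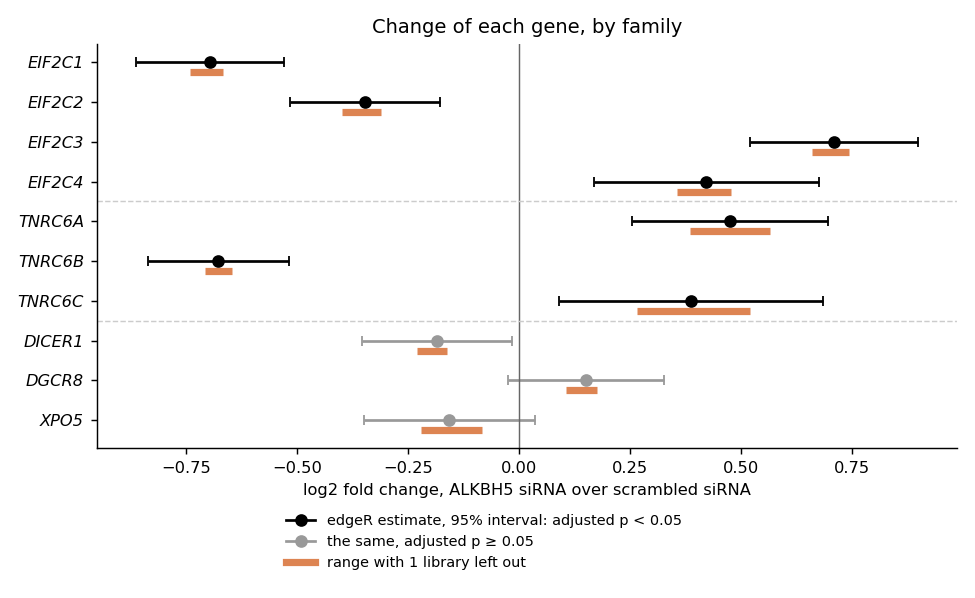
Log2 fold change (ALKBH5 siRNA over scrambled siRNA) of each gene with its 95% interval, in the order Argonaute, TNRC6 and processing genes; orange bars span the values with 1 library left out. All 7 Argonaute and TNRC6 genes keep their sign, from −0.74 to −0.67 for EIF2C1 and from 0.66 to 0.74 for EIF2C3, and the 3 processing genes lie nearest to 0.

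None of the 3 processing genes passed the test in edgeR, DESeq2 or limma-voom, and 1 of them, DICER1, had an unadjusted p under 0.05 in each of these. DICER1, the cytoplasmic RNase, was at 99.8, 102 and 93.0 CPM against 84.3, 88.2 and 87.4 CPM. Its groups did not overlap, but its log2 fold change of −0.18 (95% interval −0.35 to −0.02) had an adjusted p of 0.0558 in edgeR. Without scrambled replicate 3 it passed (log2 fold change −0.23, adjusted p = 0.037), as it did with library totals (0.0124) and with upper-quartile scaling (0.048). With replicate number as a block in the edgeR fit DICER1 passed too (adjusted p = 0.0355). XPO5, the carrier of precursor hairpins, was at 156, 172 and 182 CPM against 138, 158 and 162 CPM with overlapping groups (a log2 fold change of −0.16, 95% interval −0.35 to 0.04, adjusted p = 0.143). It passed with library totals in place of scaled ones (a log2 fold change of −0.22, adjusted p = 0.0377) and with the replicate block (−0.16, adjusted p = 0.0463). The transcripts of XPO5 and of POLR1C, its neighbour, share 3.80% of the 50-base words of XPO5.

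DGCR8 was at 69.6, 76.6 and 75.7 CPM in the scrambled group and at 82.3, 79.6 and 84.4 CPM in the ALKBH5 siRNA libraries. Its groups did not overlap, yet the difference was small and did not pass (a log2 fold change of 0.15, 95% interval −0.02 to 0.33, adjusted p = 0.121). The nuclease DROSHA, its partner, was at 133, 148 and 131 CPM against 94.8, 99.1 and 103 CPM and fell by 0.47 on the log2 scale (SE 0.08, adjusted p = 0.000268). DROSHA had 1.85 times the reads of DGCR8 in the scrambled and 1.20 times in the ALKBH5 siRNA libraries. This pair was chosen after its values were seen, and its groups did not overlap (exact permutation p = 0.1).

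The DGCR8 message itself carries hairpins that the Microprocessor can cut, a known feedback on DGCR8. In RefSeq positions set on GENCODE 29 exons, MIR1306 lies in a coding exon and MIR3618 in an exon outside the fully coding part. MIR3173, in an intron of DICER1, is not shown. The mature sequences of MIR1306 and MIR3618 are shown because they lie in exons of a gene described here. The seed (bases 2 to 8) is in capitals, and positions are GRCh38.p14.
hsa-miR-3618, chr22:20085797-20085818, plus strand: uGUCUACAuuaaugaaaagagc
hsa-miR-1306-5p, chr22:20086072-20086093, plus strand: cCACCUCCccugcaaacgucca
hsa-miR-1306-3p, chr22:20086112-20086129, plus strand: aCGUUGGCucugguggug
No read was counted for MIR3618 or MIR1306 in any library. A read that overlaps DGCR8 and a hairpin can be set aside as ambiguous, so a count of 0 says little of the hairpins. Of the 50-base words of DGCR8, 11.3% also occurred in other genes' transcripts, most of them in AC006547.2.

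The rest of the pathway was read from 7 lists of genes outside the 10, of which 86 genes were tested. Of these, 22 were higher and 39 lower, together 70.9% against 61.6% of all genes, with a median log2 fold change of −0.09. The lists and the genes described were chosen with earlier results of these data known.

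Most of the chaperones that open Argonaute for loading fell. Of the 13 genes on the list of loading chaperones and passenger strand clearance, 10 were lower and 1 higher. The share called was 84.6%, against 61.6% of all tested genes (30.8% lower), and the list's median log2 fold change was −0.98, against 0.01 over all tested genes. The heat shock protein HSP90AA1 fell from 1077 ± 18.6 to 455 ± 33.0 CPM (a log2 fold change of −1.24, adjusted p = 7.57e-08). Its co-chaperones FKBP4 and FKBP5 fell from 389 ± 18.8 to 174 ± 6.17 CPM and from 49.0 ± 1.73 to 19.8 ± 0.622 CPM. The single gene that rose was TSN, a part of the nuclease that clears passenger strands, from 149 ± 7.52 to 197 ± 18.3 CPM. TSNAX, the other gene of that nuclease on the list, did not pass (log2 fold change −0.08, adjusted p = 0.569), and its groups overlapped. Both were named after their values were seen. The chaperones on this list have many clients, and Argonaute is 1 of them.

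Among 10 nuclear processing genes, 5 were lower and the other 5 did not pass. The 50.0% called is less than the 61.6% of all tested genes, of which 30.8% were lower. Besides DROSHA, ILF2 had a log2 fold change of −0.58, and KHSRP, which binds terminal loops of some precursors, fell by 0.57. HNRNPA2B1, which has been described as a reader of methylated precursors and was named after its value was seen, was lower too (a log2 fold change of −0.29). Of the 3 nuclear transport genes, RAN, the GTPase that exportins need, fell from 355 ± 41.5 to 247 ± 20.7 CPM and XPO1 by 0.48 on the log2 scale. XPOT, the exportin of tRNA, rose from 70.0 ± 7.63 to 182 ± 17.7 CPM (a log2 fold change of 1.38, adjusted p = 2.82e-07), so the exportin genes XPO5, XPO1 and XPOT had log2 fold changes of −0.16, −0.48 and 1.38.

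The partners of Dicer changed in opposite directions. TARBP2, which helps Dicer measure its product, was at 47.7, 49.7 and 49.4 CPM against 36.0, 36.6 and 39.4 CPM (a log2 fold change of −0.39, adjusted p = 0.00227). PRKRA, the other partner, was at 60.1, 64.9 and 60.2 CPM against 74.2, 84.1 and 74.6 CPM (a log2 fold change of 0.33, adjusted p = 0.00557). The groups overlapped in neither. The RNA editor ADAR fell by 0.22, a call that needed scrambled replicate 1 (adjusted p = 0.0667 without it) and ALKBH5 siRNA replicate 3 (0.0649 without it).

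Partners of Argonaute and TNRC6 in silencing bodies went both ways, with 8 of 23 tested genes higher and 7 lower and a list median of 0.08. All tested genes went both ways too, and the 65.2% called here is near their 61.6%. EDC3, a decapping activator, fell from 64.8 ± 1.26 to 25.8 ± 0.860 CPM (a log2 fold change of −1.33), and the helicase DDX6 by 0.84. IPO8, an importin that binds Argonaute, rose from 58.2 ± 4.04 to 121 ± 6.43 CPM (a log2 fold change of 1.05, adjusted p = 6.78e-07). MOV10, a helicase found with Argonaute, stood at 119 ± 4.09 and 120.3 ± 11.9 CPM (a log2 fold change of 0.02, 95% interval −0.17 to 0.21, adjusted p = 0.85).

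Of 10 tested genes that tail, hold back or degrade small RNAs, 2 were higher and 5 lower, and the 70.0% called is near the 61.6% of all tested genes. ZCCHC11 (TUT4), which adds uridines to let-7 precursors bound by LIN28, fell from 112 ± 1.65 to 55.5 ± 4.28 CPM (a log2 fold change of −1.01, adjusted p = 8.38e-07). LIN28B, which holds back let-7 precursors, rose from 17.2 ± 0.239 to 30.8 ± 4.65 CPM (a log2 fold change of 0.84, adjusted p = 7.04e-05), and XRN2, a nuclear exonuclease, fell by 0.62. LIN28A and TRIM71 were too low to be tested.

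Host genes carry microRNAs in their introns or exons, and 9 of the 23 tested were higher and 8 lower, 73.9% against 61.6% of all tested genes. MCM7, a subunit of the replication helicase, fell from 642 ± 76.0 to 226 ± 5.34 CPM (a log2 fold change of −1.51, adjusted p = 6.1e-08). CHM, a Rab escort protein, and PTK2, the focal adhesion kinase, rose by 1.45 and 2.14 on the log2 scale. The hairpin positions used here placed none inside PTK2, so it counts as a host by the list alone. MIR17HG, the host of the cluster that includes miR-17 and miR-20a, was at 2.97 ± 0.477 and 2.91 ± 0.810 CPM and did not pass (adjusted p = 0.931; named after its value was seen). The main mature strands from the MCM7 intron are shown because their host fell most among the tested hosts, with seeds in capitals.
hsa-miR-106b-5p, chr7:100094043-100094063, minus strand: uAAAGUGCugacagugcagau
hsa-miR-93-5p, chr7:100093815-100093837, minus strand: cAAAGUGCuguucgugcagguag
hsa-miR-25-3p, chr7:100093571-100093592, minus strand: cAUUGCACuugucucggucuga
The seed of miR-106b-5p and that of miR-93-5p are the same, and that of miR-25-3p differs. Messenger RNA of a host gene is no measure of its mature microRNA, which these libraries do not count.

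**Figure D4:**
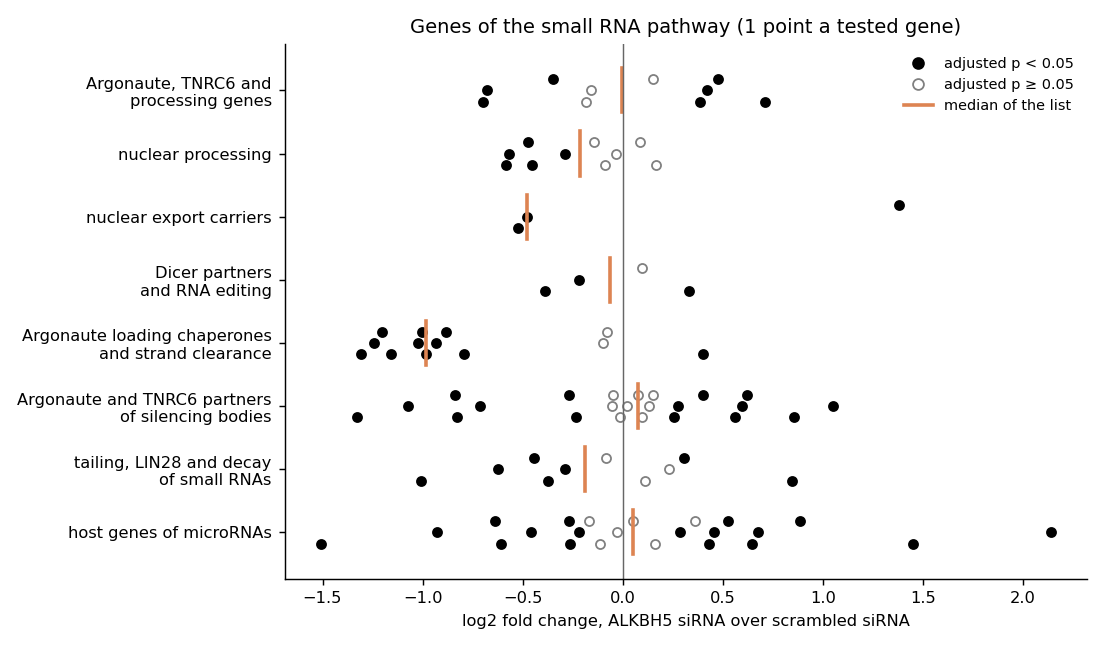
Log2 fold change (ALKBH5 siRNA over scrambled siRNA) of each tested gene in the Argonaute, TNRC6 and processing group and in the 7 pathway lists; filled points passed the test at an adjusted p under 0.05, open points did not, and the orange line is the list's median. The loading chaperone list lies furthest from 0, with a median of −0.98.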

How the data were processed

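RNA of 6 libraries was counted per gene. Values were deposited as whole counts of reads for each gene symbol, not normalized. CASAVA 1.8.2, TopHat2, SAMtools, HTSeq and build hg19 are named in the submitters' processing notes, without settings, gene models or strand use. The series table equalled the 6 single files. HTSeq's 5 summary entries were left out. Labels do not say whether replicates were separate cultures, so p-values may measure technical spread.

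Genes were compared by edgeR 4.0.16 under R 4.3.3 (filterByExpr, TMM, robust glmQLFit and glmQLFTest, group as the single term), with Benjamini-Hochberg adjustment over 14504 genes and a threshold of 0.05. CPM are TMM-scaled, and SE is the log2 fold change divided by the root of F. Intervals are 95%. The test was also run on simulated counts with far fewer changed genes than were called here, so that run does not check this setting. Alternatives were other scalings and filters, DESeq2 1.42.0, limma-voom (limma 3.58.1), glmTreat, no robust moderation, a replicate block, and each library left out.

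The genes described and the lists were chosen with earlier results of these data known. Named were the 10 genes, ALKBH5, DROSHA, TARBP2, PRKRA, RAN, MOV10 and up to 3 called genes a list with the smallest adjusted p; others are marked or serve as markers. Some genes under the rule are not reported here. AJUBA, CNOT9 (listed as RQCD1), MIR22HG and MIR31HG were not matched by symbol. Sequences are RefSeq's, matched by symbol for 9 of the 10 genes' start sites. Word sharing used GENCODE 29 transcripts.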

Additional observations from a re-analysis of the deposited data

How the results depend on the processing

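EIF2C1, EIF2C2, EIF2C3, EIF2C4, TNRC6A and TNRC6B kept their direction and their call under every alternative but the test against a 1.5-fold change. That test asks for a larger change, and it called 0 of the 10 genes (0 higher, 0 lower), 24 pathway genes (7 higher, 17 lower) and 3601 of all genes (1891 higher, 1710 lower). EIF2C1 and EIF2C3 had adjusted p-values of 0.0947 and 0.0972 in it. With library totals, 5 of the 10 genes were lower, DICER1 and XPO5 among them, and the median log2 fold change of all tested genes moved from 0.01 to −0.06. With 1 library left out, 6 to 7 of the 10 genes were called. DESeq2 called 7 of the 10. Groups share replicate numbers. Deviations of same-numbered libraries correlated at 0.331, 0.0578 and 0.351, and those of libraries with unlike numbers at −0.367 to 0.0768. Scrambled replicate 2 correlated best with ALKBH5 siRNA replicate 1 (0.0768). The labels name no shared origin, so whether the numbers mark pairs is not known. With the replicate block, 9 of the 10 genes were called, 5 of them lower, with DICER1 (adjusted p = 0.0355) and XPO5 (0.0463) added. EIF2C4, with 244 to 342 reads a library, and TNRC6C, with 262 to 466, had the widest intervals.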

Other observations

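The table lists 1223 microRNA hairpin symbols, and 1005 of them had no read in any library. Of the 16 that could be tested, 3 were higher and 0 lower in edgeR at an adjusted p under 0.05, against 61.6% of all tested genes called in either direction. DESeq2 called 2 of them higher and limma-voom 3, and 0 were lower at an unadjusted p under 0.05 in any of the 3 tools. The 3 called by edgeR were MIR4292 (0.181 ± 0.121 against 0.774 ± 0.217 CPM), MIR589 (0.318 ± 0.185 against 1.09 ± 0.534 CPM) and MIR614 (0.488 ± 0.0763 against 1.05 ± 0.146 CPM), named after their values were seen. They rested on 1 to 11 reads in each scrambled and 11 to 31 reads in each ALKBH5 siRNA library. Such reads are no measure of mature microRNA, which these libraries do not count.

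CLSPN, the checkpoint adaptor claspin, is the protein-coding neighbour of EIF2C4 on the side away from EIF2C1. It fell from 73.5 ± 5.53 to 43.4 ± 2.83 CPM (a log2 fold change of −0.76, adjusted p = 2.1e-05), while EIF2C4 rose. TEKT2, the neighbour on the far side of EIF2C3, was too low to be tested. The run of genes from CLSPN to EIF2C3 thus went lower, higher, lower, higher. Of all tested genes 30.8% were called higher and 30.8% lower, and whether neighbours elsewhere alternate was not tested. CLSPN was looked at after the Argonaute values were seen.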
